A study of Mus musculus with 30 samples.

Results

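The comparison described here is wild-type B cells after 3 days of stimulated culture against the same kind of culture after 1 day. Its members were the arrays whose titles name wild type at day 1 or day 3, replicates 1 to 3 of each, which are 6 of the 30 arrays in the series. All 30 samples were purified B cells of mouse spleen with the strain given as C57BL/6, B1-8i, where B1-8i is a knocked-in immunoglobulin heavy chain variable region that wild-type and mutant mice share here. Wild-type mice were Irf4+/+ and their cells were cultured for 1 or 3 days with CD40L, IL-2, IL-4 and IL-5. The day 0 wild-type cells, used for reference, were not stimulated. The wild-type change was also set against that in Irf4-/- cells with a doxycycline-inducible Irf4, cultured in the same stimuli with no doxycycline (KO zero DOX) or with 100 ng/mL (KO high DOX), at days 1 and 3 and with 3 arrays a group. The promoter and cell type that drive this inducible Irf4 are not given in the sources used here. No doxycycline concentration is given for the wild-type cultures. Knockout arrays of day 0 and of cultures with 16 ng/mL (KO low DOX) entered the fit but were not compared with wild type. Each array came from 1 mouse, and the labels do not say whether a mouse gave both a day 1 and a day 3 culture.

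CD40 ligand stands in for help from T cells, and with IL-4 and IL-5 it drives a resting B cell first to grow and divide and later, in a part of the progeny, to become an antibody-secreting plasma cell. Plasma cell fate is set by the repressor Blimp-1 (Prdm1) and by Irf4 and Xbp1, which act against the B cell programme of Pax5, Bcl6 and Bach2 and build up the secretory pathway. The comparison asks what changed between the activated blast of the first day and the mixed, differentiating population of the third.

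Each value below is a log2 level, log2(intensity + 16), of the probe set that represents a gene, and differences are day 3 minus day 1. The 3 arrays of a day resembled each other, with correlations over genes of 0.9971 to 0.9982 at day 1 and 0.9951 to 0.9975 at day 3. Between the days they were 0.9405 to 0.9494. Median intensities were 171.38 to 174.15 on the day 1 arrays and 187.86 to 191.98 on the day 3 arrays, so the scale itself moved with the day. The 3' Actb control set exceeded the 5' set by a log2 difference of 0.1286 to 0.2338 on these 6 arrays. The series text says that 1 replicate of each group was handled at another time without saying which, so that occasion could not be entered in a fit. The labelled cell type was borne out by pan-B cell markers such as Ms4a1, the surface protein CD20, which read 13.79, 13.75 and 13.79 at day 1 and 13.97, 13.97 and 13.99 at day 3.

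Between day 1 and day 3, 8458 of 12183 genes changed (69.4%) at an adjusted p under 0.05, of which 5270 rose (43.3% of all genes tested) and 3188 fell (26.2%). A change of at least 2-fold was seen in 473 genes that rose (3.88%) and 338 that fell (2.77%). On 9653 genes (79.2%) the 3 arrays of a day all lay above or all below the 3 of the other, day 3 being higher in 49.3% and lower in 29.9% of all genes. The median difference over all genes was 0.12. With each array centred on its own median it was -0.008, and the split became 3719 genes higher and 4180 lower, so small rises and the balance of directions depend on the scaling. Gene lists are therefore read against the share of all genes called each way, and counts under centring are given in brackets where they move, as rising and falling.

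**Figure D1:**
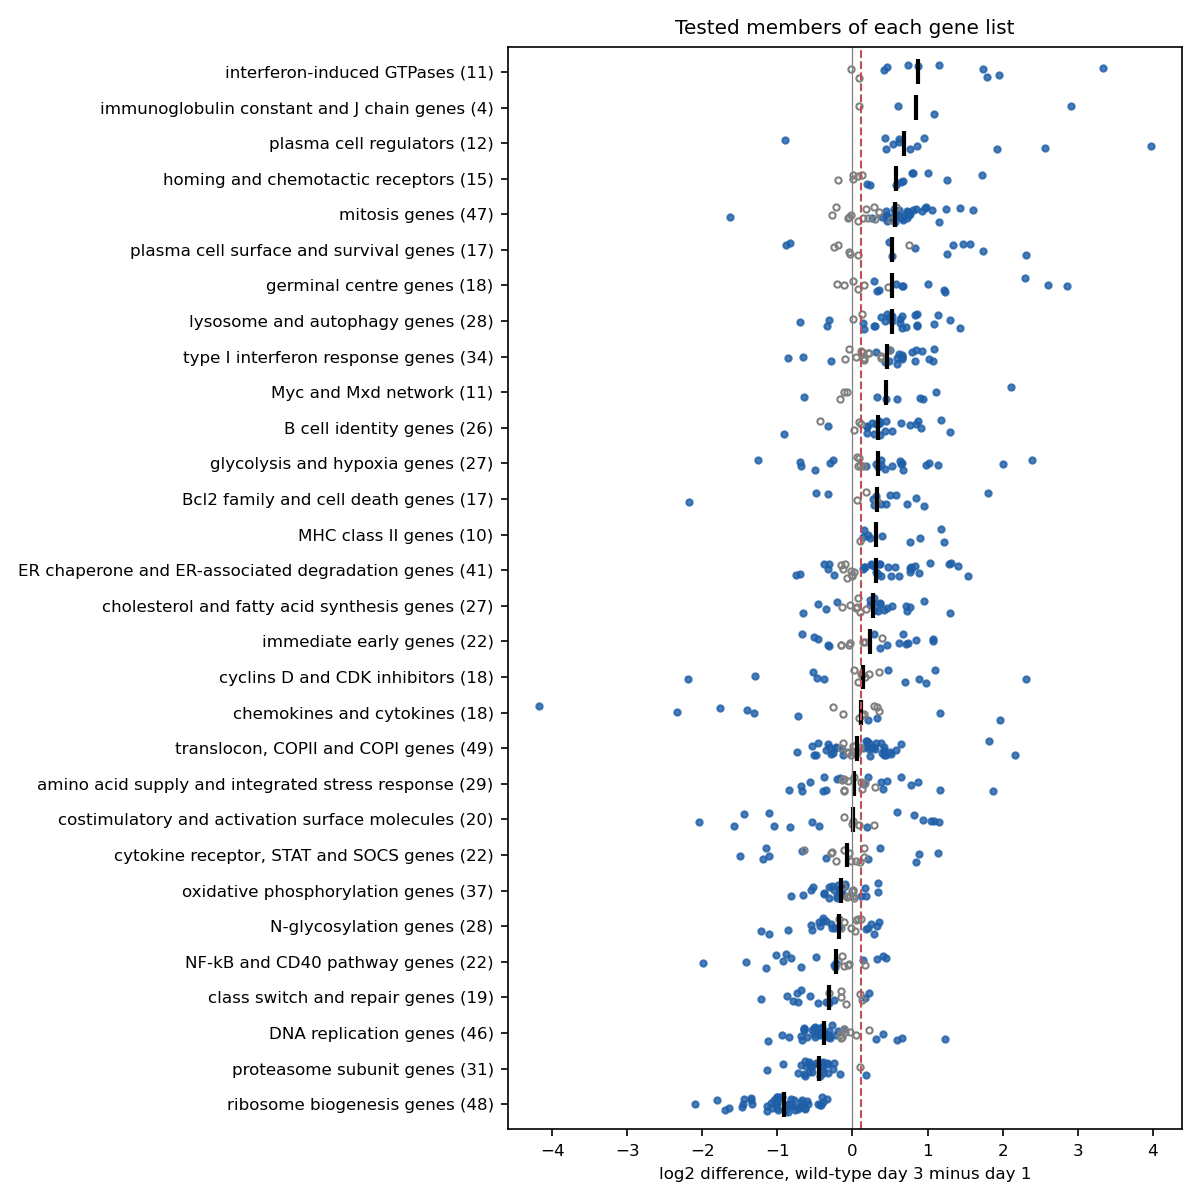
Log2 difference of day 3 minus day 1 for each tested member of 30 gene lists, with the number tested in brackets. Filled points passed an adjusted p of 0.05 and open points did not, black bars are list medians, and the dashed line is the median of all genes tested (0.12). The interferon-induced GTPases have the highest median (0.87) and the ribosome biogenesis genes the lowest (-0.92).

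Transcription factors and cofactors of plasma cells rose. Of 12 listed regulators 11 rose (91.7%, against 43.3% of all genes) and 1 fell, with a median of 0.69. Eaf2, a partner of the RNA polymerase elongation factors of the ELL family, read 8.98, 9.17 and 9.20 at day 1 and 13.12, 13.02 and 13.16 at day 3. That is a 15.8-fold difference (log2 difference 3.98, SE 0.18, adjusted p = 1.5e-14), and the 2 groups of arrays stood far apart. Prdm1, which encodes Blimp-1, read 7.41, 7.35 and 7.85 at day 1 and 9.46, 9.37 and 9.57 at day 3 (log2 difference 1.93, SE 0.20, adjusted p = 1.1e-08). Bhlha15, which encodes Mist1, a factor of secretory cells, went from 6.63, 6.75 and 6.87 to 9.39, 9.34 and 9.21 (log2 difference 2.56, SE 0.16, adjusted p = 1.7e-12). Neither gene's arrays overlapped between the days. At day 0 Prdm1 had read 8.12, 7.87 and 8.37 and Bhlha15 8.22, 8.20 and 8.58, so both read lower at day 1 than in resting cells. The mean of the regulator list relative to day 0 was -0.53, -0.55 and -0.41 on the day 1 arrays. On the day 3 arrays that mean was 0.60, 0.54 and 0.57. The size for Bhlha15 depended on the probe set, since the mean of all its tested sets differed by 1.29. In bulk RNA of a mixed culture, more cells of a type and more RNA per cell cannot be told apart.

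The secretory pathway regulators rose less. Xbp1, the factor activated by splicing in the unfolded protein response, was already high at day 1 at 12.92, 12.98 and 12.87 and read 13.55, 13.50 and 13.57 at day 3 (log2 difference 0.62, SE 0.079, adjusted p = 3.5e-07). Atf6, a membrane-tethered sensor of the same response, rose by 0.96 and Ern1, the kinase and nuclease that splices Xbp1, by 0.45. Ell2, the elongation factor that favours the secreted form of heavy chain mRNA, rose by 0.85, and Zbtb20 by 0.77. Creb3l2, an ER-tethered factor, rose by 0.44, but by 1.52 on another probe set, which represents it when a stricter filter on low values is used. The 1 regulator called lower was Irf4, by its representing set. That set read 11.76, 11.66 and 11.74 at day 1 and 10.88, 10.82 and 10.77 at day 3, and the other tested Irf4 set read 7.92, 7.89 and 7.64, then 7.35, 7.39 and 7.23. The first differed by -0.90 (adjusted p = 1.8e-06) and the second by -0.50 (SE 0.62, adjusted p = 0.49), so they do not give the same call. With the mean of both sets the difference was -0.70 with an adjusted p of 0.054. The first set also read 12.20, 11.96 and 11.99 at day 1 and 11.44, 10.98 and 10.89 at day 3 in Irf4-/- cells without doxycycline, which is above wild type. It therefore does not separate wild type from knockout, and what its lower reading at day 3 says of functional Irf4 transcript was not tested. Nor did the second set at day 3, which read 7.23 to 7.39 in wild type and 7.34 to 7.68 in KO zero DOX.

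**Figure D2:**
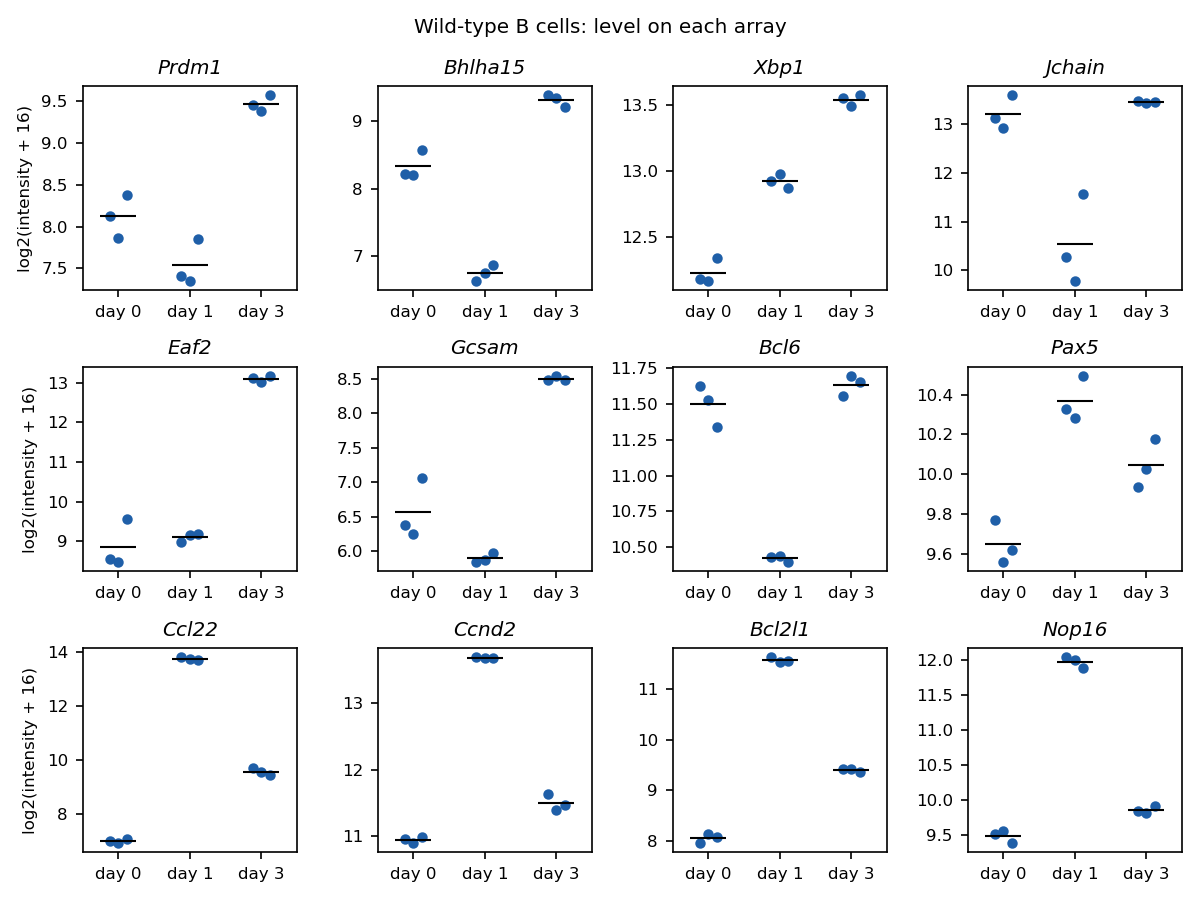
Log2(intensity + 16) on each wild-type array for 12 genes at days 0, 1 and 3, with 3 arrays a day. Points are arrays and bars are group means. Prdm1, Bhlha15, Jchain, Eaf2 and Gcsam stand higher at day 3 than at day 1 on every array, while Ccl22, Ccnd2, Bcl2l1 and Nop16 stand lower.

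Among plasma cell surface and survival genes, 9 of 17 tested rose (52.9%, against 43.3% of all genes) and 2 fell. The median was 0.53 (9 and 4 with centred arrays). Relative to day 0, the list mean was -0.70, -0.68 and -0.57 on the day 1 arrays and -0.08, 0.006 and -0.09 on the day 3 arrays. Sdc1, which encodes the plasma cell marker CD138, read 8.60, 8.56 and 8.74 at day 1 and 9.99, 9.96 and 9.95 at day 3 (log2 difference 1.34, SE 0.15, adjusted p = 5.8e-08). Tnfrsf17, the BCMA receptor through which plasma cells receive survival signals, went from 5.86, 5.89 and 5.98 to 7.26, 7.46 and 7.43 (log2 difference 1.48, SE 0.12, adjusted p = 1.9e-10). Both genes separated the days on every array, although the mean over all Sdc1 sets differed by less, 0.76. All Tnfrsf17 readings of both days lay below the table's median intensity of 188.2. That gene was tested because arrays of other groups exceeded the median. Cd28 rose by 1.74, Cd93 by 1.56 and Cxcr4, the receptor that guides plasma cells to bone marrow, by 1.26. The receptors for BAFF divided, since Tnfrsf13b (TACI) rose by 0.49 and Tnfrsf13c (BAFF receptor) differed by -0.04 (adjusted p = 0.6). Epcam, an adhesion molecule, and Cd44 fell by 0.89 and 0.83.

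Of 12 listed immunoglobulin constant and J chain genes 4 were tested, and 3 of them rose. Jchain, the protein that joins IgM and IgA into polymers, read 10.28, 9.78 and 11.56 at day 1, with replicate 3 well above the others, and 13.47, 13.43 and 13.46 at day 3 (log2 difference 2.91, SE 0.31, adjusted p = 2.1e-08). Its difference was 3.42 without day 1 replicate 3 and 2.53 without day 1 replicate 2. Resting cells at day 0 had read 13.12, 12.93 and 13.59, so the day 3 level was close to that of the starting population. Ighm rose by 0.60, Ighg3 by 1.09, and Igha differed by 0.08 (adjusted p = 0.37). The mean over all Ighm sets differed by more, 1.44.

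The protein-folding and quality-control machinery of the ER split into members that rose and members that fell. Of 41 ER chaperone and ER-associated degradation genes, 27 rose and 6 fell (median 0.31; 21 and 10 with centred arrays). The larger rises were in Derl3, a channel component of ER-associated degradation, in Txndc5, a disulfide isomerase, and in Fkbp11, a prolyl isomerase. Derl3 read 8.59, 8.66 and 8.88 at day 1 and 10.33, 10.10 and 10.33 at day 3 (log2 difference 1.54, SE 0.31, adjusted p = 1.2e-04), and Txndc5 11.37, 11.36 and 11.50 and 12.85, 12.82 and 12.78 (log2 difference 1.40, SE 0.070, adjusted p = 4.4e-14). Erlec1, a lectin that hands over misfolded glycoproteins, rose by 1.29 and Edem1 by 0.88. The members that fell included general stress-induced chaperones: Hspa5, the ER Hsp70 BiP, read 13.81, 13.80 and 13.71 at day 1 and 13.45, 13.33 and 13.42 at day 3 (log2 difference -0.37, SE 0.060, adjusted p = 8.6e-06). Sdf2l1 fell by 0.75 and Ero1a, an ER oxidase, by 0.70.

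Hspa5 and Derl3 moved in opposite directions although both hold the ER stress element in their promoters, and the stretches around it are shown for that reason; Hspa5 and Derl3 were picked after their values were seen. The element was searched as CCAAT and CCACG with 9 bases of any kind between them, on both strands in RefSeq promoter windows (250 bases before to 50 after each start, GRCm38.p6). Capitals mark the match, which on the Derl3 line lies on the opposite strand. The Hspa5 stretch is chr2:34771995-34772073 and the Derl3 stretch chr10:75893212-75893290, both read on the plus strand, 65 and 156 bases before their starts.
Hspa5: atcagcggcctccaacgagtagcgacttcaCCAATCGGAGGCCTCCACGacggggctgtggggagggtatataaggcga
Derl3: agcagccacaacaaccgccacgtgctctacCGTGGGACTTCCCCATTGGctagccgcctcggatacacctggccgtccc
The element was present in 23.8% of the 42 windows of these ER genes and in 0.12% of the 12540 windows of genes tested. Of the 10 ER genes with it, 4 rose and 2 fell (median -0.003), and of 24 without it 18 rose and 2 fell (median 0.31). A match describes letters and does not show a bound factor.

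Later steps of the secretory route did not move together. Among 49 tested genes of the translocon and of COPII and COPI vesicle coats, 23 rose (46.9%, against 43.3% of all genes) and 14 fell. The median was 0.06 (16 and 19 with centred arrays). Sec24d, a cargo-binding COPII subunit, read 7.17, 7.29 and 7.47 at day 1 and 9.56, 9.44 and 9.42 at day 3 (log2 difference 2.16, SE 0.14, adjusted p = 6.4e-12), and Tram2, a translocon-associated protein, rose by 1.82. Their relatives Sec24a and Tram1 rose by 0.43 and 0.52, and Sar1a, the GTPase that starts COPII assembly, fell by 0.74. Of 28 N-glycosylation genes 6 rose and 14 fell (median -0.18; 4 and 16 with centred arrays), with Mogs, the glucosidase that trims the first sugar, at -1.22 and the mannosyltransferase Alg3 at -1.11.

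Germinal centre genes rose in the same cultures. Of 18 tested 12 rose and 0 fell (median 0.53; 9 and 1 with centred arrays), and 6 of them rose at least 2-fold. Gcsam, a signalling adaptor of germinal centre B cells, read 5.84, 5.88 and 5.98 at day 1 and 8.48, 8.54 and 8.49 at day 3 (log2 difference 2.60, SE 0.17, adjusted p = 6.4e-12). Neil1, a base excision repair glycosylase, went from 8.06, 8.00 and 8.06 to 10.93, 10.87 and 10.90 (log2 difference 2.86, SE 0.11, adjusted p = 1.4e-15), and Mybl1, a Myb family factor, rose by 2.30. Bcl6, the repressor that defines germinal centre cells and opposes Prdm1, read 10.43, 10.44 and 10.40 and then 11.56, 11.70 and 11.65 (log2 difference 1.21, SE 0.21, adjusted p = 1.6e-05). Prdm1 and Bcl6 thus both stood higher on every day 3 array than on any day 1 array, in RNA that pools all cells of a culture. Fas rose by 0.58, S1pr2 by 0.68 and Rgs13 differed by -0.20 (adjusted p = 0.62). Genes of class switching and of the repair steps it uses moved the other way, with 2 of 19 rising and 11 falling (median -0.32; 0 and 14 with centred arrays). Ung, the uracil glycosylase that acts after cytidine deamination, fell by 1.21, and Xrcc5, the Ku80 end-joining subunit, by 0.87.

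B cell identity genes also rose from day 1, 20 of 26 with 2 falling (median 0.35, or 15 rising and 3 falling with centred arrays). They stayed below resting cells: relative to day 0, the list mean was -0.88, -0.89 and -0.82 on the day 1 arrays. On the day 3 arrays it was -0.56, -0.48 and -0.47. Blk, a Src family kinase of the B cell receptor, read 10.37, 10.33 and 10.40 at day 1 and 11.53, 11.73 and 11.75 at day 3 (log2 difference 1.30, SE 0.094, adjusted p = 2.4e-11). Ikzf3, which encodes Aiolos, rose by 1.19, Foxo1 by 0.88, Cd79a, a signalling chain of the B cell receptor, by 0.77, and Bach2 by 0.43. Ebf1 and Spib rose by 0.31 and 0.29; with centred arrays Ebf1 was at 0.18, still called, and Spib at 0.16 (adjusted p = 0.13). Pax5, the factor that maintains B cell identity, read 10.33, 10.28 and 10.49 and 9.94, 10.03 and 10.18 (log2 difference -0.32, SE 0.10, adjusted p = 0.0084). Its fall was not called with the mean of its probe sets (-0.07, adjusted p = 0.37) or without day 1 replicate 3 (-0.26, adjusted p = 0.051). Cr2, complement receptor 2, fell by 0.92. Id3, an inhibitor of E proteins, rose by 0.48 (adjusted p = 0.029), a call lost with centred arrays (adjusted p = 0.077) and without day 1 replicate 1 or 2 or day 3 replicate 2 or 3 (adjusted p = 0.052 to 0.11).

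Antigen presentation genes rose by small amounts. Of 10 MHC class II genes 9 rose and 0 fell (median 0.31) (5 and 0 with centred arrays). Relative to day 0, the list mean was -0.62, -0.65 and -0.61 on the day 1 arrays and -0.11, -0.08 and -0.10 on the day 3 arrays. Ciita, the master coactivator of class II, went from 11.03, 10.96 and 11.15 to 11.71, 11.86 and 11.84 (log2 difference 0.76, SE 0.13, adjusted p = 2.1e-05), and H2-Oa, a chain of the peptide-editing inhibitor H2-O, rose by 1.23. The class II chain gene H2-Aa differed by 0.09 (adjusted p = 0.066).

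The 15 largest rises included genes outside the lists above. Parm1, a mucin-like membrane protein, read 6.31, 6.36 and 6.65 at day 1 and 10.55, 10.85 and 10.61 at day 3, an 18.8-fold difference (log2 difference 4.23, SE 0.26, adjusted p = 1.9e-12). After Parm1 and Eaf2 came Hemgn (3.55), Ryr2, an intracellular calcium release channel (3.53), Selenop, a secreted selenium carrier (3.46), and Iigp1 (3.34). Pon3 (3.02), Pinlyp (2.92), Jchain, Tanc2 (2.90), Rhobtb1 (2.86), Neil1, Fam171a1 (2.85), Gimap7 (2.80) and Pik3ip1, an inhibitor of PI3 kinase (2.67), completed the set. Their course before day 1 differed. Selenop, Gimap7, Neil1 and Pik3ip1 had been high in resting cells and low at day 1, with Selenop at 11.25, 11.26 and 11.35 at day 0, 8.44, 8.41 and 8.71 at day 1 and 11.92, 12.02 and 11.98 at day 3. Parm1, by contrast, had been at 6.49, 6.42 and 6.64 at day 0, level with day 1.

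The cell cycle genes divided by phase. Of 47 mitosis genes 32 rose and 1 fell (median 0.56; 25 and 2 with centred arrays), whereas of 46 DNA replication genes 5 rose and 33 fell (median -0.38; 4 and 37). Ccnb2, a mitotic cyclin, read 10.31, 10.47 and 10.59 at day 1 and 12.06, 12.04 and 12.09 at day 3 (log2 difference 1.61, SE 0.23, adjusted p = 1.4e-06), and the proliferation marker Mki67 read 11.51, 11.53 and 11.71 and 12.70, 12.47 and 12.76 (log2 difference 1.06, SE 0.29, adjusted p = 0.0028). The centromeric histone gene Cenpa rose by 1.44. Orc1, the largest subunit of the origin recognition complex, went the other way, from 9.36, 9.43 and 9.31 to 8.26, 8.11 and 8.33 (log2 difference -1.13, SE 0.11, adjusted p = 4.4e-09), and no array of a day overlapped with the other day. All 6 tested Mcm2 to Mcm7 helicase genes fell, by 0.32 (Mcm6) to 0.54 (Mcm3). E2f2 was the largest rise on the replication list at 1.23, and Mybl2, the B-Myb partner of the mitotic gene complex, was the 1 mitosis gene that fell, by 1.63.

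**Figure D3:**
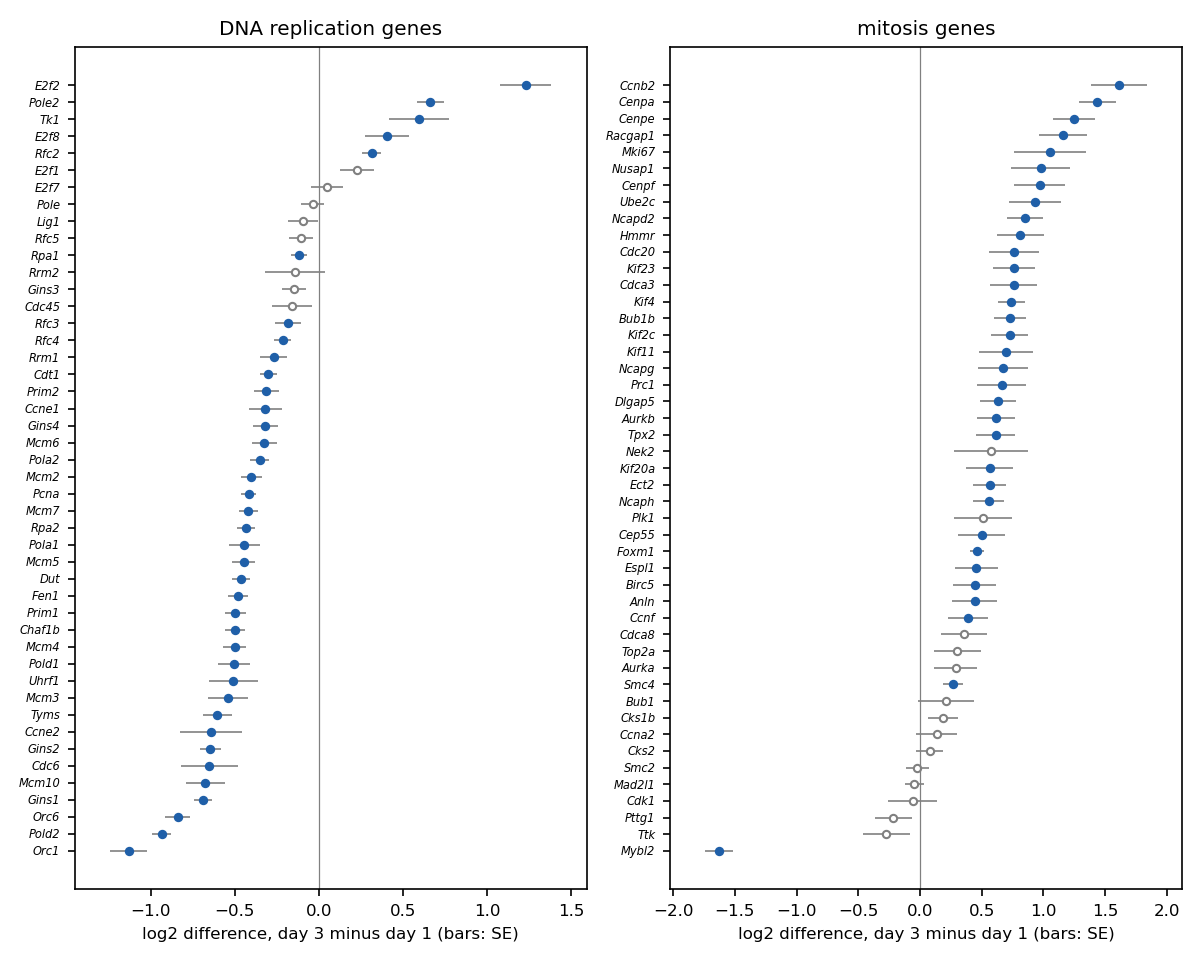
Log2 difference of day 3 minus day 1 with its standard error for 46 DNA replication genes (left) and 47 mitosis genes (right), sorted by size. Filled points passed an adjusted p of 0.05; most replication genes lie below 0 from Orc1 (-1.13) upward, and most mitosis genes above 0 up to Ccnb2 (1.61).

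Many mitotic promoters carry the cell cycle genes homology region, searched here as TTTGAA on either strand, and those of Mki67 and Ccnb2 are printed because both are markers of dividing cells that rose here. Capitals mark the matches within each stretch. The Ccnb2 window held 2 matches, and only the one farther from the start site is printed. Both stretches are read on the minus strand, chr7:135716460-135716525 for Mki67 and chr9:70421686-70421751 for Ccnb2, in GRCm38.p6 from RefSeq. They start 30 bases before matches that lie 116 and 167 bases before the start sites.
Mki67: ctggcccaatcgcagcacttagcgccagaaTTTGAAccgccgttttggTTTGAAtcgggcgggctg
Ccnb2: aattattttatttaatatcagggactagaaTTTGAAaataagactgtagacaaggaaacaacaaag
The letters TTTGAA were in 76.7% of the 43 windows of mitosis genes and in 12.4% of windows of genes tested, and CCAAT was in 76.7% against 37.2%. Of 30 mitosis genes with TTTGAA 22 rose and 0 fell (median 0.69), and of 10 without it 4 rose and 1 fell (median 0.33). An E2F site (TTTCCCGC or TTTGGCGC) was in 28.9% of the 45 windows of replication genes and in 2.81% of windows of genes tested. Replication genes with and without it had medians of -0.32 and -0.40.

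Genes for building ribosomes fell without exception among those tested. All 48 tested ribosome biogenesis genes fell (against 26.2% of all genes), with a median of -0.92, and 21 fell at least 2-fold; the count was 48 under centring and under quantile normalization too. Nop16, a nucleolar protein of large subunit assembly, read 12.03, 11.99 and 11.88 at day 1 and 9.85, 9.82 and 9.92 at day 3 (log2 difference -2.10, SE 0.088, adjusted p = 3.5e-15). Rrp12 went from 10.81, 10.77 and 10.75 to 8.92, 9.15 and 8.85 (log2 difference -1.80, SE 0.079, adjusted p = 7.0e-15), and Grwd1 and Nolc1 fell by 1.70 and 1.65. The smallest fall was that of Npm1, nucleophosmin, at -0.34. Snhg3, a host transcript of small nucleolar RNAs, fell by 2.17. The letters CACGTG, the E-box bound by Myc and Max, were in 25.5% of 47 windows of these genes and in 9.75% of windows of genes tested, and the 12 genes with it had a median of -1.01 beside -0.86 for 31 without.

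Members of the Myc network, which drives ribosome production, moved in opposite ways. Myc itself read 12.12, 12.11 and 12.06 at day 1 and 11.54, 11.55 and 11.26 at day 3 (log2 difference -0.65, SE 0.077, adjusted p = 1.0e-07). Mxd4, an antagonist that takes Myc's place beside Max, went from 8.95, 8.90 and 9.05 to 10.97, 11.13 and 11.17 (log2 difference 2.12, SE 0.097, adjusted p = 1.3e-14). The antagonists Mxi1, Mxd3, Mnt and Mxd1 rose by 1.12, 0.94, 0.90 and 0.59. In all 7 of 11 tested members rose and 1 fell (7 and 4 with centred arrays).

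Proteasome and respiratory chain genes fell by smaller steps. Of 31 proteasome subunit genes 29 fell and 1 rose (median -0.44; 29 fell and 0 rose with centred arrays). Psmd7, a lid subunit, went from 12.16, 12.12 and 12.24 to 11.05, 11.02 and 11.04 (log2 difference -1.14, SE 0.066, adjusted p = 5.6e-13), and Psmb1 rose by 0.18. Of 37 oxidative phosphorylation genes 23 fell and 5 rose (median -0.15; 28 fell and 2 rose with centred arrays), led by Cyc1, cytochrome c1, at -0.82 and by Cycs at -0.66. All of these lists had stood higher at day 1 than at day 0: the median of day 1 minus day 0 was 1.12 for ribosome biogenesis, 1.96 for DNA replication, 1.04 for the proteasome and 0.60 for oxidative phosphorylation. These differences share the day 1 arrays with the later comparison. By array, the mean log2 level of the ribosome biogenesis list above its day 0 mean was 1.23, 1.22 and 1.17 at day 1 and 0.29, 0.27 and 0.19 at day 3. That of the mitosis list was 2.04, 2.10 and 2.14 at day 1 and 2.63, 2.53 and 2.68 at day 3.

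**Figure D4:**
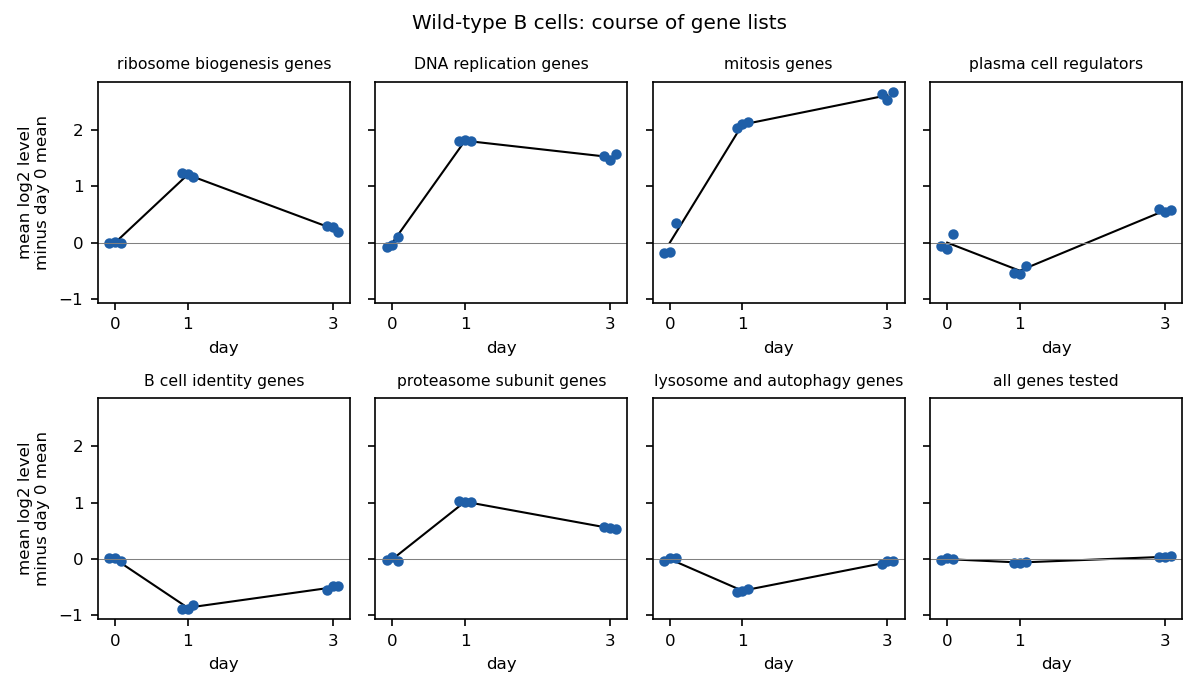
Mean log2 level of 7 gene lists and of all genes tested on each wild-type array, relative to the day 0 mean, at days 0, 1 and 3. Points are arrays and lines join group means. Ribosome biogenesis peaks at day 1 near 1.2 and lies at 0.19 to 0.29 at day 3, while mitosis genes rise to 2.53 to 2.68 at day 3.

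Metabolic lists divided between branches. Of 27 glycolysis and hypoxia genes 16 rose (59.3%, against 43.3% of all genes) and 6 fell, with a median of 0.34 (13 and 6 with centred arrays). Aldoc, an aldolase isoform, read 8.97, 9.02 and 9.08 at day 1 and 11.41, 11.54 and 11.31 at day 3 (log2 difference 2.39, SE 0.15, adjusted p = 1.7e-12), and the hypoxia-induced Ankrd37 rose by 2.00, while Hk2, hexokinase 2, fell from 11.33, 11.20 and 11.18 to 9.97, 9.87 and 10.10 (log2 difference -1.25, SE 0.29, adjusted p = 5.0e-04). Of 27 genes of cholesterol and fatty acid synthesis 16 rose (59.3%) and 4 fell, with a median of 0.27 (10 and 5 with centred arrays). Tm7sf2, a sterol reductase, rose by 1.29 and Scd2, a fatty acid desaturase, by 0.96, and Idi1 fell by 0.66. Amino acid supply and integrated stress response genes showed no common direction, with 10 of 29 higher and 9 lower (7 and 13 with centred arrays). Ddit4, an mTORC1 inhibitor, rose by 1.87 and Chac1, a glutathione-degrading enzyme, by 1.16. Shmt2, a mitochondrial enzyme of serine metabolism, fell by 0.84.

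The deepest falls included signals made by activated B cells. Ccl22, a chemokine that attracts regulatory and helper T cells through CCR4, read 13.79, 13.73 and 13.70 at day 1 and 9.71, 9.55 and 9.43 at day 3, an 18.1-fold difference (log2 difference -4.18, SE 0.33, adjusted p = 9.1e-11). Ccl17, which binds the same receptor, went from 9.27, 9.03 and 8.94 to 6.73, 6.72 and 6.77 (log2 difference -2.34, SE 0.32, adjusted p = 1.0e-06). Il6 and Ebi3 fell by 1.77 and 1.40, whereas Ltb, lymphotoxin beta, rose from 11.14, 11.07 and 10.91 to 12.90, 13.03 and 13.10 (log2 difference 1.97, SE 0.12, adjusted p = 1.4e-12). Over 18 tested chemokine and cytokine genes 4 rose and 6 fell (2 and 7 with centred arrays). Lad1 fell from 11.27, 11.10 and 11.14 to 7.64, 7.58 and 7.60, a difference of -3.56 whose SE of 0.99 comes from all 30 arrays (adjusted p = 0.003). Other large falls were in Adm, adrenomedullin (-2.44), Plxnd1 (-2.33), Prxl2b (-2.26), Niban3 (-2.20), S100a6 (-2.14), Ackr3, an atypical chemokine receptor (-2.10), and the probe set annotated as Mir1949 (-2.09). That set's annotation does not show that it reads the mature miRNA.

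Targets and parts of the NF-kB pathway, which CD40 engages, fell more often than they rose, 12 against 4 of 22 (median -0.22; 16 against 3 with centred arrays). Traf1, an adaptor of the TNF receptor family, read 12.08, 11.93 and 11.94 at day 1 and 9.96, 9.97 and 10.03 at day 3 (log2 difference -2.00, SE 0.12, adjusted p = 1.1e-12). Nfkb2 fell by 1.42, Tnfaip3, the feedback inhibitor A20, by 1.15 and Nfkbia by 0.92. The receptor gene Cd40 went from 12.22, 12.11 and 12.13 to 11.09, 11.13 and 11.12 (log2 difference -1.04, SE 0.11, adjusted p = 8.0e-09). Costimulatory and activation molecules split, 7 of 20 rising and 8 falling (6 and 8 with centred arrays): Tnfsf9 (4-1BB ligand), Icam1 and Cd70 fell by 2.04, 1.58 and 1.45, while Havcr1 (TIM-1), Cd274 (PD-L1) and Cd86 rose by 1.16, 1.09 and 1.04. Batf, a partner of Irf4 on composite DNA sites, fell by 1.09.

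Cytokine receptor, STAT and SOCS genes showed no common direction. Of 22 tested 5 rose and 6 fell (4 and 10 with centred arrays), so that 11 of 22 were called beside 69.4% of all genes. Cish, a STAT5-induced inhibitor, read 12.01, 11.93 and 11.98 at day 1 and 10.61, 10.55 and 10.28 at day 3 (log2 difference -1.49, SE 0.11, adjusted p = 3.4e-11). Stat5a, Il5ra and Il2ra, the last 2 being receptor chains for IL-5 and IL-2, fell by 1.19, 1.16 and 1.11. Il4ra, the receptor chain for IL-4, rose by 0.89 and Stat4 by 1.13.

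Survival and cell cycle entry genes changed as well. Bcl2l1, which encodes the survival protein Bcl-xL, read 11.63, 11.53 and 11.56 at day 1 and 9.41, 9.42 and 9.36 at day 3 (log2 difference -2.18, SE 0.14, adjusted p = 3.3e-12). Bcl2l11, which encodes its antagonist Bim, went from 9.53, 9.58 and 9.69 to 11.37, 11.36 and 11.49 (log2 difference 1.81, SE 0.14, adjusted p = 1.1e-10), and Bcl2 and Mcl1 rose by 0.44 and 0.28. In the Bcl2 family and cell death list 11 of 17 rose and 3 fell (9 and 3 with centred arrays). Ccnd2, the D cyclin of activated B cells, read 13.70, 13.68 and 13.68 and then 11.63, 11.39 and 11.46 (log2 difference -2.20, SE 0.079, adjusted p = 5.5e-16), and its partner Cdk6 fell by 1.30. Ccng2, a cyclin of quiescent cells, rose from 9.31, 9.24 and 9.34 to 11.52, 11.60 and 11.69 (log2 difference 2.31, SE 0.090, adjusted p = 1.5e-15), and the CDK inhibitors Cdkn1b, Cdkn2c and Cdkn2d rose by 0.98, 0.89 and 1.10. The cyclin D and CDK inhibitor list held 6 that rose and 5 that fell of 18.

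Interferon-induced GTPases rose in a larger share than type I interferon response genes, whose share was nearer that of all genes. Of 11 interferon-induced GTPases, which attack the membranes around intracellular pathogens, 9 rose (81.8%, against 43.3% of all genes) and 0 fell. Their median was 0.87, and the count was the same with centred arrays. Iigp1 read 9.28, 9.03 and 9.41 at day 1 and 12.86, 12.29 and 12.59 at day 3 (log2 difference 3.34, SE 0.23, adjusted p = 8.5e-12), and Gbp2 went from 10.66, 10.68 and 10.93 to 12.61, 12.49 and 12.57 (log2 difference 1.80, SE 0.18, adjusted p = 8.9e-09). Of 34 type I interferon response genes 18 rose (52.9%, against 43.3% of all genes) and 3 fell, with a median of 0.46 (16 and 3 with centred arrays). Cmpk2 and Oasl2 rose by 1.09 and 1.02, and Ifit3 fell by 0.86, with day 1 arrays at 9.82, 10.06 and 9.05 and day 3 arrays at 8.95, 8.86 and 8.54. For Ifit3, Cmpk2 and Oasl2 replicate 3 was the lowest array on both days.

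The interferon-stimulated response element, searched as GAAA, 2 bases of any kind and GAAA again on both strands, was in 77.8% of the 9 windows of the GTPase genes and in 2.97% of windows of genes tested. The neighbouring genes Gbp2b and Gbp2 are shown because they carry the same 10 letters in capitals, on the strand opposite to the search, 137 and 59 bases before their starts. The stretches are chr3:142594680-142594749 and chr3:142620574-142620643, plus strand, GRCm38.p6, from RefSeq.
Gbp2b: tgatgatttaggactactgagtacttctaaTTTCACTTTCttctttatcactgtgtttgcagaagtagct
Gbp2: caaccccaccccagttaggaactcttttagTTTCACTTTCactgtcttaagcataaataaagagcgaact
Gbp2b rose by 0.74 and Gbp2 by 1.80.

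Homing receptors, lysosomal genes and immediate early genes completed the course. Of 15 homing and chemotactic receptor genes 10 rose and 0 fell (median 0.57, or 7 and 1 with centred arrays). Relative to day 0, their mean was -1.43, -1.45 and -1.38 on the day 1 arrays and -0.93, -0.81 and -0.92 on the day 3 arrays. Ccr6 read 10.42, 10.42 and 10.79 at day 1 and 12.15, 12.43 and 12.24 at day 3 (log2 difference 1.73, SE 0.33, adjusted p = 6.6e-05), and S1pr1, the receptor for exit from lymphoid tissue, rose by 1.00 and Ccr7 by 0.67. Klf2, which activates S1pr1, differed by 0.13 (adjusted p = 0.29). Of 28 lysosome and autophagy genes 23 rose and 3 fell (median 0.52, or 20 and 3 with centred arrays). Relative to day 0, their mean was -0.58, -0.57 and -0.54 on the day 1 arrays and -0.09, -0.04 and -0.04 on the day 3 arrays. Lgmn, a lysosomal asparaginyl protease, and Npc2, a cholesterol carrier, rose by 1.43 and 1.30.

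Immediate early genes showed a difference between replicates. Of 22 tested 10 rose and 5 fell (7 and 9 with centred arrays). Fos read 7.11, 7.14 and 7.37 at day 1 and 7.58, 7.55 and 9.01 at day 3, so that replicate 3 stood above the other day 3 arrays, and Egr1 read 10.12, 10.11 and 10.43 and 10.07, 10.41 and 12.19. Both were called (adjusted p = 0.0026 and 0.048), but a fit on the 6 arrays alone gave an adjusted p of 0.053 for Fos. The Egr1 arrays of the days overlapped, and only day 3 replicate 3 lay above every day 1 array.

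Markers of other cell types were read beside these results, and their part in them was not tested. Summed intensity of 8 tested NK cell markers was 1042 to 1427 at day 1 and 2317 to 3448 at day 3, and 5 of the 8 rose. Gzma and Gzmb, granule proteases, rose by 1.72 and 1.63, with Gzma highest on replicate 3 of both days (7.81, 7.75 and 8.41, then 9.53, 9.44 and 10.17). Eomes and Nkg7 differed by 0.15 and 0.62 (adjusted p = 0.42 and 0.067). For 7 T cell markers the sum was 1765 to 1908, then 4030 to 4636, with 5 rising (4 with centred arrays). Cd2, which B cells express too, rose by 2.40, Il7r by 0.41, Cd8a by 0.35, Thy1 by 0.29 and Cd4 by 0.24, and the T cell receptor chain genes Cd3d and Cd3g differed by 0.05 and 0.28 (adjusted p = 0.74 and 0.19).

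Of 16 myeloid markers 4 rose and 2 fell (4 and 3 with centred arrays; sums 2762 to 3115, then 3353 to 3656), with the macrophage marker Adgre1 at -1.64. Of 6 dendritic cell markers 1 rose and 2 fell (1 and 3 with centred arrays; sums 3764 to 4526, then 3242 to 3564). Of 5 erythroid and platelet markers 3 rose (866 to 914, then 1131 to 1593). The platelet chemokine genes Ppbp and Pf4 read 7.26, 7.57 and 8.55 and 7.13, 7.45 and 8.67 at day 3, replicate 3 being highest in both. The lowest value of any probe set on any array was 1, so a reading above 0 does not show that a marker was expressed. The sum of 7 pan-B cell markers was 44445 to 46353 at day 1 and 57593 to 59264 at day 3.

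The wild-type change was then set against that in KO zero DOX cultures by testing the difference between both changes. Below, a higher change in wild type is the more positive one, whether it is a larger rise or a smaller fall. Of all genes 3557 differed (29.2%), 2461 with the higher wild-type change (20.2%) and 1096 with the lower (9.0%). The differences of at least 2-fold numbered 131 (1.08%) and 48 (0.394%). With centred arrays the split turned to 1328 and 2447, so list counts under centring are given. The second Irf4 set followed doxycycline: it read 12.68 to 13.10 at day 1 and 13.53 to 13.66 at day 3 in KO high DOX, and 7.34 to 7.68 at day 3 in KO zero DOX. In wild type it read 7.23 to 7.92 over both days. At day 1 the libraries labelled KO zero DOX read 7.84, 10.77 and 7.80 on it, and those labelled KO low DOX (16 ng/mL) 11.17, 7.69 and 10.89, so replicate 2 of each went against its label. Without both libraries the split was 1998 and 855. Plasma cell regulators had a higher change in wild type in 8 of 12 cases and a lower one in 0 (7 and 0 centred, 8 and 0 without the libraries in doubt). Bhlha15 rose by 2.56 in wild type and changed by -0.49 in KO zero DOX, where its arrays read 6.68, 6.77 and 6.52 at day 1 and 6.25, 6.05 and 6.20 at day 3 (difference 3.05, SE 0.22, adjusted p = 3.4e-09). Prdm1 changed by -0.03 there, from 7.75, 7.90 and 7.73 to 7.87, 7.89 and 7.53 (difference 1.95, SE 0.28, adjusted p = 5.0e-05). Eaf2, by contrast, rose in KO zero DOX from 8.35, 8.58 and 8.32 to 10.86, 10.70 and 11.21. That was a change of 2.51, beside 3.98 in wild type (difference 1.47, SE 0.26, adjusted p = 3.7e-04). In KO high DOX Eaf2 rose by 3.35 (difference from wild type 0.63, SE 0.26, adjusted p = 0.057).

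Secretory genes divided the same way. Of 41 ER genes 21 had a higher change in wild type and 0 a lower one (16 and 0 centred), and of 49 translocon and coat genes 25 and 0 (10 and 2). Without the libraries in doubt these counts were 22 and 0 and 24 and 0. Cholesterol and fatty acid synthesis genes had 17 of 27 and 0 (9 and 1), and type I interferon response genes 16 of 34 and 0 (10 and 0), and both were the same without those libraries. Bcl6, by contrast, changed by 1.11 in KO zero DOX cultures, and the difference from wild type was 0.11 (adjusted p = 0.81). Gcsam read 6.08, 6.12 and 5.97 and 6.39, 6.17 and 6.50 in KO zero DOX (difference 2.31, SE 0.25, adjusted p = 1.6e-06). NF-kB pathway genes had a lower change in wild type in 11 of 22 and a higher one in 1 (15 and 0 centred, 11 and 1 without those libraries), with medians of -0.22 in wild type and -0.02 in KO zero DOX. Ribosome biogenesis genes had 10 of 48 with a lower change in wild type and 0 with a higher one (26 and 0 centred, 6 and 0 without those libraries), with Nop16 at -1.54 in KO zero DOX and -2.10 in wild type. Of 47 mitosis genes 5 had a higher change and 1 a lower one (1 and 1 centred, 2 and 1 without those libraries).

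**Figure D5:**
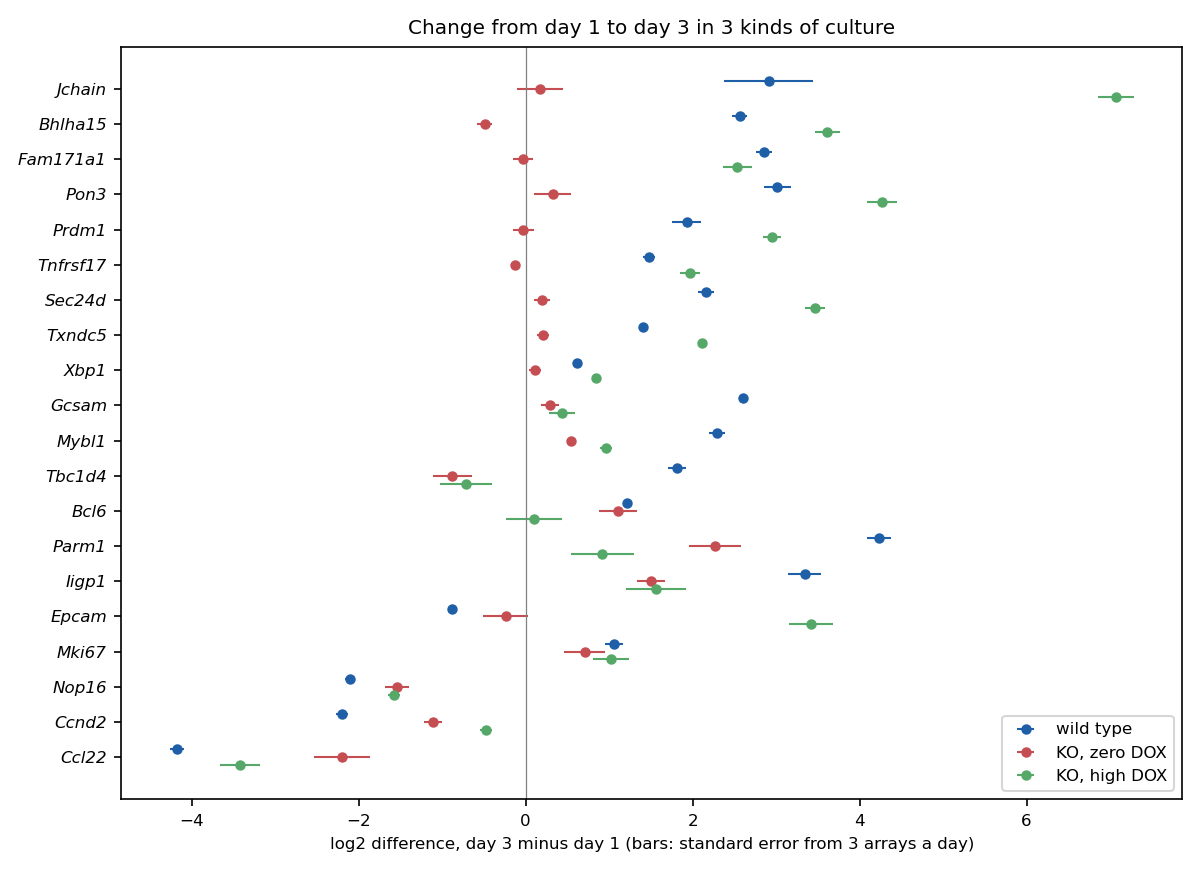
Log2 difference of day 3 minus day 1 for 20 genes in wild type, KO zero DOX and KO high DOX cultures, with standard errors from the 3 arrays of each day. Bhlha15 and Prdm1 lie near or below 0 in KO zero DOX and above wild type in KO high DOX, while Gcsam and Tbc1d4 are highest in wild type.

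Against KO high DOX, where the second Irf4 set was high, 4813 genes differed (39.5%), 3052 with the higher wild-type change (25.1%) and 1761 with the lower (14.5%), or 1826 and 2526 with centred arrays. Those of at least 2-fold were 203 (1.67%) and 135 (1.11%). Here the secretory genes lay the other way. Of 49 translocon and coat genes 40 had a lower change in wild type and 2 a higher one (44 and 1 centred), of 41 ER genes 25 and 1 (29 and 0), of 28 N-glycosylation genes 22 and 1 (24 and 1), and of 12 plasma cell regulators 5 and 1 (7 and 1). Jchain rose by 2.91 in wild type and by 7.07 in KO high DOX, where it read 6.19, 6.80 and 6.27 at day 1 and 13.53, 13.62 and 13.31 at day 3 (difference -4.16, SE 0.44, adjusted p = 3.3e-07). The day 3 arrays of both cultures overlapped, and at day 1 every wild-type array lay above every KO high DOX array. Epcam fell by 0.89 in wild type and rose in KO high DOX from 9.01, 8.33 and 9.17 to 12.36, 12.15 and 12.25 (difference -4.30, SE 0.28, adjusted p = 1.2e-10).

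Interferon, germinal centre and class II genes had a higher change in wild type than in KO high DOX. Of 34 type I interferon response genes 29 did and 0 had a lower one (25 and 0 centred), with medians of 0.46 in wild type and -0.57 in KO high DOX. A higher change need not mean a higher level. The GTPase gene Iigp1 had means of 9.24 at day 1 and 12.58 at day 3 in wild type. Its means were 11.19 and 12.75 in KO high DOX, and 12.05 and 13.56 in KO zero DOX. Levels of the lists were not compared between genotypes. Of 18 germinal centre genes 8 had a higher and 1 a lower change (8 and 2 centred; medians 0.53 and 0.18), and of 10 MHC class II genes 10 and 0 (3 and 0; medians 0.31 and -0.04). Bcl6 read 9.47, 9.82 and 10.13 at day 1 and 9.46, 9.86 and 10.41 at day 3 in KO high DOX, with overlapping arrays (difference from wild type 1.11, SE 0.29, adjusted p = 0.0045). Gcsam changed by 0.43 there (difference 2.17, SE 0.25, adjusted p = 7.6e-07), and Parm1, the largest rise in wild type, by 0.92 (difference 3.31, SE 0.37, adjusted p = 6.6e-07). Mki67 changed by 1.02, and its difference from wild type was 0.03 (adjusted p = 0.96).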

How the data were processed

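RNA of each culture was read on Affymetrix mouse expression arrays. Per the series text, the authors deposited linear intensity values modelled with D-Chip from perfect-match probes. MAS5 appears in the submitters' processing notes without a stated role. Here values were turned to log2(value + 16). Tests took in probe sets with 1 gene symbol that exceeded the table's median of 188.2 on 3 or more of 30 arrays, and a gene was represented by its tested set of highest mean. limma 3.58.1 in R 4.3.3 fitted 10 group means over all 30 arrays, with Benjamini-Hochberg adjustment over 12183 genes, and a gene was called at an adjusted p under 0.05. With 3 arrays a group an exact permutation test cannot go below 0.1, and precision is limited by how many arrays there are.

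Named genes were the 15 largest changes each way with arrays that did not overlap, the 6 largest each way in each comparison of genotypes, a panel of B and plasma cell genes, and up to 4 members of each list. Clone-named transcripts and variable-region immunoglobulin genes were skipped, other genes were picked after their values were seen, and panel genes that were not tested are not analysed here. The arrays, lists and panel were chosen with earlier results of these data known. Alternatives were another pseudocount, filter, normalization, array weights, probe set rule, replicate block, trend, samples in the fit, and each replicate left out. The fit was tested on simulated data. Deviations of same-numbered day 1 and day 3 arrays correlated at 0.073, 0.19 and 0.24 in wild type, 0.52, 0.46 and 0.43 in KO zero DOX and 0.46, 0.60 and 0.64 in KO high DOX. The numbers thus pair the knockout arrays, by the data, and not clearly the wild-type ones; the fit reported has no block.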

Additional observations from a re-analysis of the deposited data

Results flagged for a closer look

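The genes below are the largest differences, each way, between the wild-type change from day 1 to day 3 and the change in a knockout culture, as tested by the interaction contrast in limma over all 30 arrays. Positive values mean a more positive change in wild type, on the log2 scale.

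Against KO zero DOX, the plasma cell genes Bhlha15 (3.05, or 1.53 with the mean of its probe sets) and Jchain (2.74) differed, with Fam171a1 at 2.89 and Pon3, a lactonase, at 2.69. Tbc1d4, a Rab GTPase activator, stood at 2.69, or 1.72 with the mean of its probe sets. Cth, an enzyme of cysteine synthesis, stood at 2.38 because it changed by -1.80 in KO zero DOX and by 0.59 in wild type. In the other direction were S100a6 (-2.61), Mmp12, a macrophage metalloproteinase (-2.47), Gbp2b (-2.32), the chemokine genes Ccl6 (-1.99) and Ccl22 (-1.98), and Pla2g7 (-1.70). Mmp12 and Ccl6 rose in KO zero DOX by 3.55 and 2.12, beside wild-type values of 1.09 and 0.13. The median change of the NK markers was 0.87 in wild type and 1.97 in KO zero DOX, and that of the myeloid markers 0.25 and 0.54. Over all genes 9.0% had a lower change in wild type and 20.2% a higher one. Among 8 NK markers these were 2 and 0 (4 and 0 centred, 2 and 0 without the libraries in doubt). Among 16 myeloid markers they were 2 and 1 (6 and 1 centred, 5 and 1 without those libraries). The part of these markers in the differences was not tested.

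Against KO high DOX, Parm1 (3.31), Hemgn (2.94), Crhbp, a binding protein of corticotropin-releasing hormone (2.83), and Tbc1d4 (2.53, or 1.57 with the mean of its sets) had the higher change in wild type. The platelet chemokine genes Ppbp and Pf4 were at 2.46 and 2.23, and in wild type at day 3 both were highest on replicate 3. Lower in wild type were Epcam (-4.30, or -2.50 with the mean of its sets), Jchain (-4.16), Klrb1f (-3.21), Tg, thyroglobulin (-2.84), Phlda1 (-2.82) and Egln3, an oxygen-sensing hydroxylase (-2.68). Phlda1 fell by 1.15 in wild type and rose by 1.67 in KO high DOX.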

How the results depend on the processing

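Of 986 values of the 55 genes followed in wild type under all alternatives, 976 kept their call, 9 lost it, 1 gained it and 0 changed sign; the genes concerned were Id3, Spib, Irf4, Pax5 and Klf2 (0.18 with array weights, adjusted p = 0.043). The 24 differences between genotypes kept their call under every alternative in which the gene was tested. These were 284 of 284 values against KO zero DOX and 288 of 288 against KO high DOX. A gene that a filter removed has no value under that alternative. The replicate block gave 8990 called genes in wild type, 4570 for the difference from KO zero DOX and 5756 for that from KO high DOX, and it changed none of the calls of the genes followed. With the stricter filter, which tests fewer genes, 3083 genes rose in wild type, 1952 differed from KO zero DOX (1056 higher, 87 of at least 2-fold), and 1852 were higher against KO high DOX. With centred arrays, 1328 genes were higher and 2447 lower than in KO zero DOX (79 and 82 at least 2-fold), and 1826 higher than in KO high DOX. Array weights gave 6210 (4130 higher, 2080 lower) and 4596 higher; the cause was not tested. Leaving out 1 array at a time gave 7805 to 7999 called genes in wild type (4766 to 4984 higher, 3005 to 3060 lower; at least 2-fold 455 to 488 and 318 to 357). It gave 2556 to 4218 against KO zero DOX (1780 to 2954 and 776 to 1264; 123 to 165 and 40 to 61), lowest without KO zero DOX day 3 replicate 1, and 4042 to 5034 against KO high DOX (2504 to 3306 and 1474 to 1737; 177 to 237 and 121 to 151). Genes with low signal over background, such as Rgs13, have compressed differences on the log2(value + 16) scale.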
